A study of Homo sapiens with 3 samples.

Results

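A set of 8 antimicrobial and acute phase genes of epithelia was followed in single-cell transcriptomes of BxPC-3, a human cell line established from a ductal adenocarcinoma of the pancreas. They were chosen by name: S100A8, S100A9, PI3, SLPI, LCN2, DEFB1, SAA1 and SAA2, which are 8 of the 33694 features in the matrices. The study mixed BxPC-3 cells that stably carried EGFP with BxPC-3 cells that stably carried mCherry and kept them in suspension, where one cell can enter another and form a cell-in-cell structure. Sorting by fluorescence gave double-positive cells, with both signals, and single-positive cells, with EGFP alone or mCherry alone, and parental cells were the control. All 3 populations were of the same line, were expanded and were brought into suspension with trypsin. The labels do not say when the cells were expanded, whether the single-positive library holds both colours, or whether parental cells carried a fluorescent protein or were kept in suspension. With 1 library per population there is no replicate to check any difference against, no test between populations was possible, and the intervals cover counting error only.

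These genes form part of the chemical defence of epithelial surfaces. S100A8 and S100A9 pair into calprotectin, which withholds zinc and manganese from microbes and acts on the receptors TLR4 and RAGE. PI3 (elafin) and SLPI are small inhibitors of neutrophil serine proteases built on the whey acidic protein (WAP) domain, and LCN2 (lipocalin) binds bacterial siderophores and so withholds iron. DEFB1 encodes a beta-defensin, a cationic peptide that most epithelia make without induction. SAA1 and SAA2 encode serum amyloid A proteins of the acute phase, which the liver makes in large amounts and which inflamed epithelia also make. Interleukins and tumour necrosis factor are known to induce several of these genes through NF-kB, C/EBP and STAT3, and LCN2, SLPI and calprotectin are known from ductal carcinomas of the pancreas.

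In GENCODE 29 on GRCh38 several of them are neighbours. S100A8 (chr1:153390032-153391188, minus strand) and S100A9 (chr1:153357854-153361027, plus strand) are 29004 bases apart. PI3 (chr20:45174876-45176544, plus strand) and SLPI (chr20:45252239-45254564, minus strand) are 75.7 kb apart, in the chromosome 20 cluster that also holds WFDC2, and SAA1 (chr11:18266174-18269977, plus strand) and SAA2 (chr11:18239223-18248643, minus strand) are 17.5 kb apart. LCN2 lies at chr9:128149071-128153455 on the plus strand. RefSeq promoters (GRCh38.p14) with a single listed start were used for S100A9 and LCN2, which represent the calprotectin pair and the genes found together most often below. The 250 bases before each start are shown 5′ to 3′, with matches to the TATA box (TATAAA) and to a loose NF-kB motif (GGG and CC with any 5 bases between) in capitals. They come from chr1:153357604-153357853 and chr9:128149203-128149452, plus strand, and the LCN2 start used, 128149453, lies inside the GENCODE span of the gene.
S100A9: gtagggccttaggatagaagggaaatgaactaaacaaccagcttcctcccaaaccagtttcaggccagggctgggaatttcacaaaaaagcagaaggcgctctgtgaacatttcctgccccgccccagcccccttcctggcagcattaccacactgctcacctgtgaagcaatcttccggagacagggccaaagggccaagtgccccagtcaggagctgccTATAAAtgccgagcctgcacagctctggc
LCN2: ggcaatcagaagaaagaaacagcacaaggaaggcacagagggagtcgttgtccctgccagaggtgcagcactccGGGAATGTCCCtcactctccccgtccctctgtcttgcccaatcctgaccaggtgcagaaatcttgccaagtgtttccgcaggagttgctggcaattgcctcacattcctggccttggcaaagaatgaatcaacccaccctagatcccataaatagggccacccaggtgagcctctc
S100A9 had a TATA box 29 to 24 bases before its start. LCN2 had overlapping NF-kB matches on both strands, from 176 to 166 bases before its start. Both windows also held 1 match to the C/EBP motif TTNNGNAA, which is not capitalised and overlaps neither of the others. On either strand the NF-kB letters were found in 54.4% of 35116 RefSeq windows of this length, the C/EBP letters in 33.2% and the TATA box in 10.7%, so each match is only a description of the sequence.

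Cells were taken as barcodes with at least 6500 unique molecular identifiers (UMIs, each a count of 1 captured transcript). There were 1940 double-positive, 1291 single-positive and 2409 parental cells with medians of 29963.5, 38137 and 23290 UMIs. The libraries held 62517276, 51637677 and 65107147 UMIs, of which 97.8%, 97.7% and 98.0% were in these cells, and pairs of libraries shared 1 to 6 cell barcodes. The libraries differed in their cells as well as in depth. Cells under 0.5% mitochondrial UMIs made up 6.19% of double-positive, 21.8% of single-positive and 31.8% of parental cells, and cells with fewer than 15000 UMIs made up 7.32%, 19.4% and 16.2%. Epithelial markers summed to 10175, 10367 and 10497 counts per 1000000 UMIs (CPM), with all 10 detected. The 16 neutrophil and monocyte markers, the cells best known for S100A8 and S100A9, summed to 5.98, 5.79 and 6.98 CPM, led by CD14, and PTPRC, CSF3R, FCGR3B, TYROBP, FCER1G and FCN1 were at 0 in all 3 libraries. The summed hepatocyte markers, the main source of SAA1 and SAA2 in the body, were between 0.507 and 0.596 CPM, with ALB and APOB at 0.

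All 8 genes were measured above the floor used here, a mean of 5 CPM over the 3 libraries, and most lay close together between populations. S100A8 and DEFB1 stood apart by at least 1.5-fold between double-positive and single-positive cells, in opposite directions: 2 of 8 genes, where 0.758% of all 9501 features at that floor were as far apart, 0.305% higher and 0.453% lower in double-positive cells. Between single-positive and parental cells S100A8 alone was that far apart (1 of 8, lower, against 0.589% of features apart and 0.253% lower), and between double-positive and parental cells DEFB1 alone (1 of 8, lower, against 0.674% of features apart and 0.41% lower). At 2-fold the counts were 2, 1 and 0 of 8, where 0.126%, 0.137% and 0.242% of features were as far apart. The median log2 ratio of the 8 genes was -0.07, -0.20 and -0.23 in these 3 comparisons, beside -0.03, 0.06 and 0.03 over all features. The 3 comparisons share libraries and are not independent of each other.

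**Figure D1:**
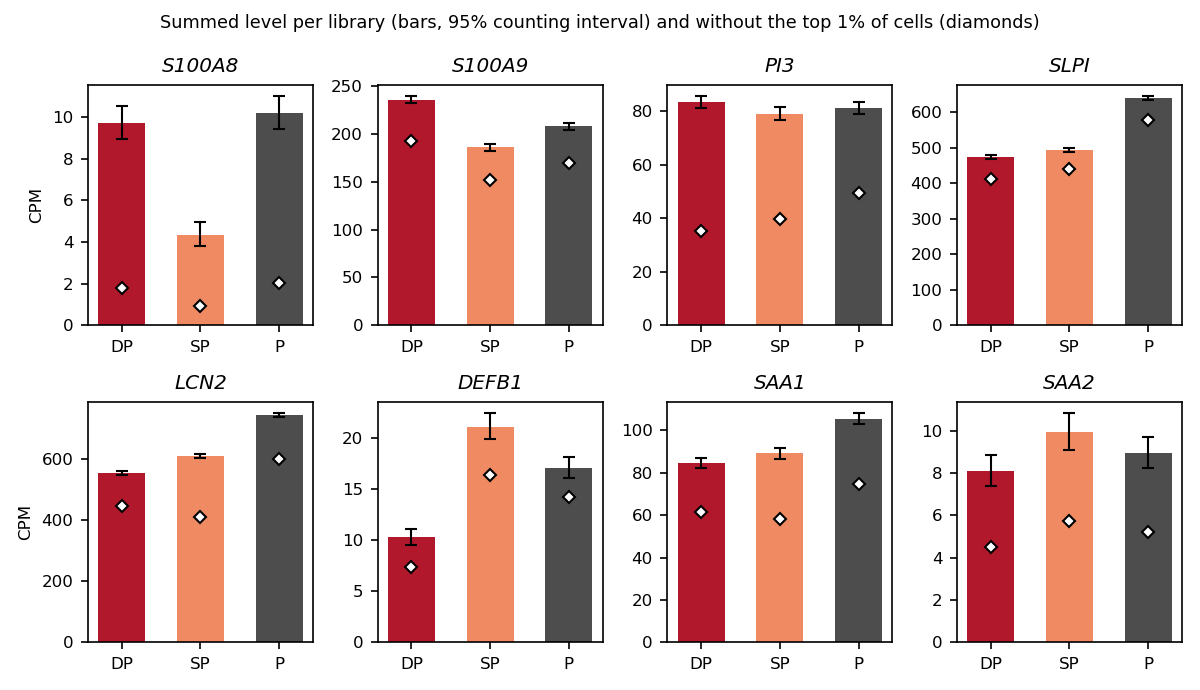
Level of each gene in counts per 1000000 UMIs (CPM, vertical axis from 0) in double-positive (DP), single-positive (SP) and parental (P) cells, as bars with exact Poisson intervals at 95%; white diamonds give the level without the 1% of cells that held most of that gene. S100A8 was lowest in single-positive cells at 4.34 CPM and DEFB1 lowest in double-positive cells at 10.29 CPM, and the diamonds for S100A8 lie at 1.79, 0.924 and 2.05 CPM.

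Of the calprotectin pair, S100A8 was the gene that differed most. It had 9.71 CPM in double-positive cells (594 UMIs), 4.34 CPM in single-positive cells (219 UMIs) and 10.2 CPM in parental cells (650 UMIs). The double-positive and parental intervals overlapped and the single-positive library was the low one. The log2 ratio was 1.16 (0.94 to 1.39) for double-positive over single-positive cells and -1.23 (-1.46 to -1.01) for single-positive over parental cells, and that for double-positive over parental cells, -0.07 (-0.23 to 0.09), spanned 0. These levels came from very few cells. The 1% of cells with most S100A8 held 81.8% of its UMIs in double-positive, 79.0% in single-positive and 80.2% in parental cells, and the richest cell of each library held 191, 49 and 143 UMIs. Without these cells the levels were 1.79, 0.924 and 2.05 CPM, below the floor, with a log2 ratio of 0.95 for double-positive over single-positive cells and -1.15 for single-positive over parental cells. The single-positive level was the lowest in both cases. Without the richest cells all levels were also below those of the monocyte marker CD14, at 4.37, 3.37 and 4.94 CPM, so no order is read from them.

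S100A9, the partner, was found in many more cells and differed less. Its level was 236 CPM in double-positive, 186 CPM in single-positive and 208 CPM in parental cells, so the single-positive library was again the lowest. The log2 ratio was 0.34 (0.30 to 0.38) for double-positive over single-positive cells, -0.16 (-0.20 to -0.12) for single-positive over parental cells and 0.18 (0.15 to 0.22) for double-positive over parental cells. Its UMIs were less concentrated than those of S100A8: the richest 1% of cells held between 19.1% and 19.5% of them. They were still uneven over cells, with 59.9%, 64.4% and 60.1% of them in the richest 10% of double-positive, single-positive and parental cells.

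The protease inhibitors behaved differently from each other. PI3 had 83.4 CPM in double-positive, 79.0 CPM in single-positive and 81.2 CPM in parental cells, within a log2 ratio of 0.08 in each comparison. Its transcripts were spread over cells differently: the richest 1% of cells held 58.4% of PI3 UMIs in double-positive, 50.2% in single-positive and 39.7% in parental cells. Without them PI3 was at 35.1, 39.9 and 49.6 CPM, and the log2 ratio of double-positive over parental cells was -0.50 in place of 0.04. At 6500 UMIs per cell, PI3 had the highest variance over mean of all 9501 features in the double-positive library, 55.4, where the median feature had 1.05. SLPI, in contrast, was present in most cells and lower in both sorted populations. It had 473 CPM in double-positive and 494 CPM in single-positive cells, against 639 CPM in parental cells, with log2 ratios of -0.43 (-0.45 to -0.41) and -0.37 (-0.40 to -0.35) over parental cells. The richest 1% of cells held 14.2%, 12.6% and 11.2% of SLPI UMIs.

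LCN2, the siderophore binder, followed SLPI. It had 556 CPM in double-positive and 610 CPM in single-positive cells, against 744 CPM in parental cells, with log2 ratios of -0.42 (-0.44 to -0.40) and -0.29 (-0.31 to -0.27) over parental cells. The ratio of double-positive over parental cells kept its sign in 11 of 11 alternatives. In 9 of them it left its interval, reaching -0.19 in cells of 22974 to 32998 UMIs. Without cells under 0.5% mitochondrial UMIs LCN2 was at 514 CPM in double-positive, 509 CPM in single-positive and 610 CPM in parental cells. Among cells of cell cycle phase G1 alone, the LCN2 ratio of single-positive over parental cells was -0.002. Its highest single cell, in the single-positive library, held 2460 LCN2 UMIs, 7.996% of that library's LCN2. Without the richest 1% of cells LCN2 was at 447, 410 and 599 CPM, which puts the single-positive level below the double-positive one. LCN2 had the highest variance over mean of all features in the single-positive library, 54.4.

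DEFB1, the defensin, which lies on chromosome 8, was lowest in double-positive cells. It had 10.29 CPM there (629 UMIs), against 21.1 CPM in single-positive cells (1064 UMIs) and 17.1 CPM in parental cells (1089 UMIs), and none of the intervals overlapped. The log2 ratio was -1.04 (-1.18 to -0.89) for double-positive over single-positive cells, -0.73 (-0.88 to -0.59) for double-positive over parental cells and 0.30 (0.18 to 0.43) for single-positive over parental cells. DEFB1 was less bound to a few cells than S100A8: the richest 1% held 29.3%, 23.8% and 17.9% of its UMIs, and without them the levels were 7.37, 16.4 and 14.2 CPM. Both ratios of double-positive cells kept their direction and stayed past 1.5-fold in 11 of 11 alternatives, while that of single-positive over parental cells was -0.03 without cells under 0.5% mitochondrial UMIs.

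The serum amyloid genes differed little. SAA1 had 84.8 CPM in double-positive and 89.2 CPM in single-positive cells, against 106 CPM in parental cells, and SAA2 had 8.08, 9.91 and 8.95 CPM. The log2 ratio of SAA1 was -0.32 (-0.37 to -0.26) for double-positive and -0.24 (-0.30 to -0.19) for single-positive cells over parental cells, and both intervals of SAA2 over parental cells spanned 0. Among G1 cells alone, the SAA1 ratio of single-positive over parental cells was 0.05. For double-positive over single-positive cells the log2 ratio of SAA2 was -0.29 (-0.48 to -0.11). The pair are close copies: 30.9% of the 90-base windows of SAA1 transcripts also occur in SAA2, so how the authors' counting divided reads between them is uncertain. The neighbouring readthrough SAA2-SAA4 had 4, 7 and 8 UMIs, and SAA4 had 0, 1 and 0.

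To compare how many cells made each gene, every cell was thinned at random to 6500 UMIs. SLPI was then found in 77.7% of double-positive, 79.8% of single-positive and 80.6% of parental cells, LCN2 in 58.8%, 57.1% and 59.2%, and S100A9 in 43.8%, 39.7% and 42.5%. SAA1 was found in 23.7%, 25.8% and 26.6% of cells, and S100A8 in only 2.16%, 1.16% and 2.03%. DEFB1 was found in 5.31% (4.35 to 6.40) of double-positive, 7.67% (6.28 to 9.26) of single-positive and 7.85% (6.80 to 8.99) of parental cells. In cells thinned to 15000 UMIs the DEFB1 shares were 8.84%, 13.8% and 15.1%, so double-positive cells had the lowest share at both depths, as in CPM. PI3 was also found in the lowest share of double-positive cells, with 11.96%, 19.8% and 16.4% at 6500 UMIs and 21.5%, 22.6% and 26.5% at 15000, but its CPM was not the lowest there, so no order is read from its shares. SAA2 was in 2.78%, 5.34% and 3.86% of cells at 6500 UMIs and in 6.40%, 5.96% and 6.84% at 15000. The deeper thinning left out the 142, 251 and 390 cells below 15000 UMIs. With all UMIs of each cell, at depths that differ, S100A8 was found in 4.48%, 3.25% and 4.90% of cells and SLPI in 96.9%, 96.8% and 96.6%.

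No cell type lacking these genes was present to give a background. Markers of other cell types were found in few thinned cells: the highest was CD14, in 2.78% of double-positive, 1.86% of single-positive and 2.91% of parental cells, followed by COL1A1, in 1.24%, 1.24% and 1.45%. The S100A8 shares lie at or under the CD14 level and are not read as an order. SAA2 was found in the same share of double-positive cells as CD14, 2.78%, and its shares are not read as an order either. Near-empty barcodes, with 100 UMIs or fewer, held 1, 2 and 6 UMIs of S100A8 and 278, 163 and 110 of S100A9 over 376065, 335971 and 357128 barcodes. Subtracting 5% of each library's UMIs in proportion to that free RNA left all 3 counts of genes at least 1.5-fold apart as they were.

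**Figure D2:**
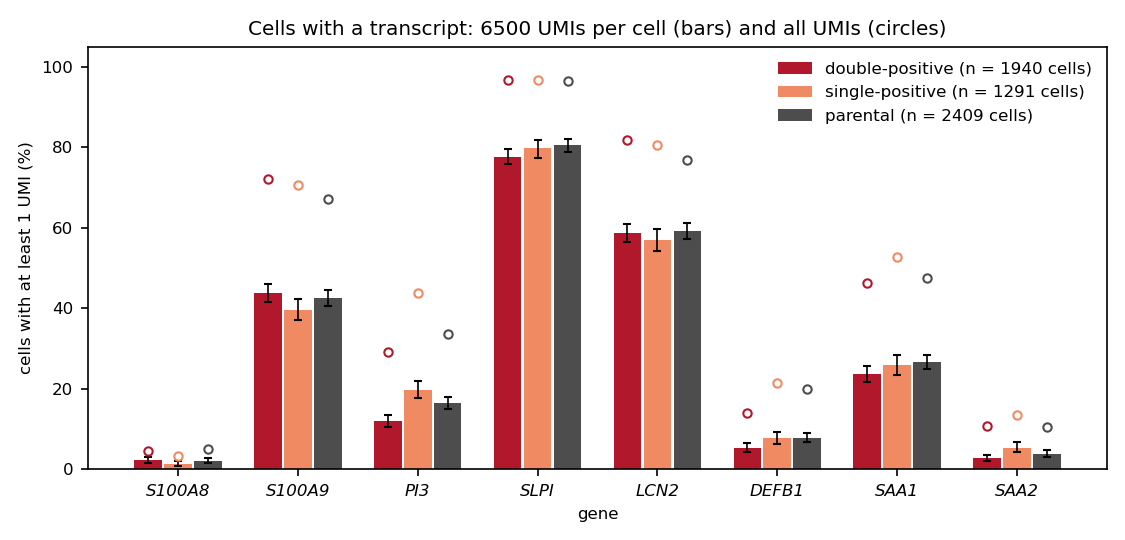
Share of cells with at least 1 UMI of each gene (vertical axis, %) in double-positive, single-positive and parental cells; bars give cells thinned to 6500 UMIs with exact binomial intervals at 95%, and open circles give the same cells with all their UMIs. SLPI was found in 77.7% to 80.6% of thinned cells and S100A8 in 1.16% to 2.16%.

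**Figure D3:**
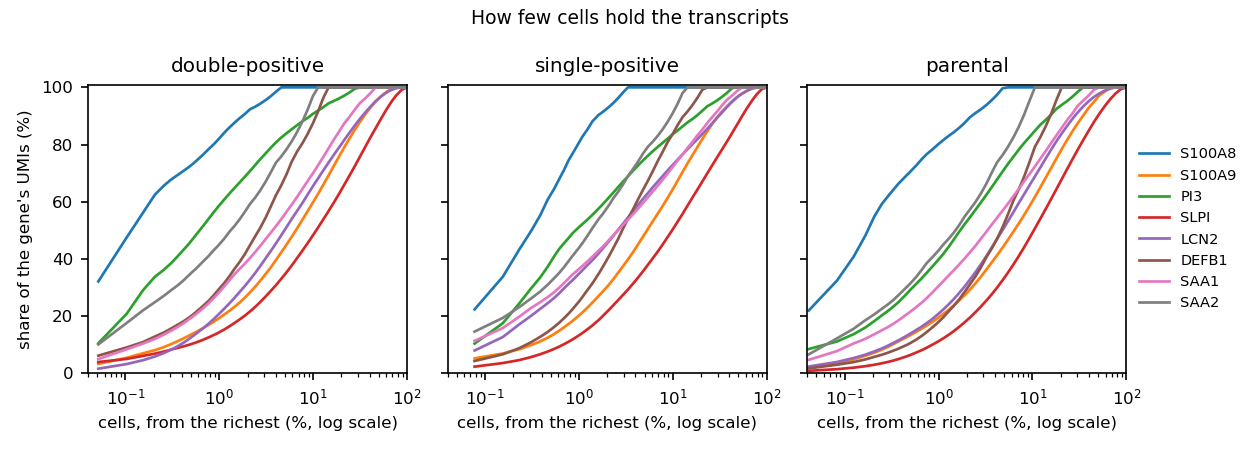
Cumulative share of each gene's UMIs (vertical axis, %) against the share of cells taken from the richest downwards (horizontal axis, %, log scale), one panel per library. S100A8 is the steepest curve in every panel, with 79.0% to 81.8% of its UMIs in 1% of cells, and SLPI the flattest, with 11.2% to 14.2%.

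Within each library, pairs of the 8 genes differed in how far they were found in the same cells. Pearson correlations of log counts over cells thinned to the same depth were highest for SLPI and LCN2, at 0.44 in double-positive, 0.54 in single-positive and 0.55 in parental cells. PI3 with SLPI and PI3 with LCN2 lay between 0.44 and 0.46 in every library, and LCN2 with SAA1 between 0.40 and 0.46. These values describe 1940, 1291 and 2409 cells that share a library, and sparse counts hold them down. The neighbours on the chromosome were not always the closest pairs: SAA1 with SAA2 had a mean of 0.38 over the 3 libraries and S100A8 with S100A9 a mean of 0.30. DEFB1 had 0.22 with SLPI and 0.20 with LCN2, but means of 0.00 with S100A8, 0.03 with SAA1 and 0.00 with SAA2.

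**Figure D4:**
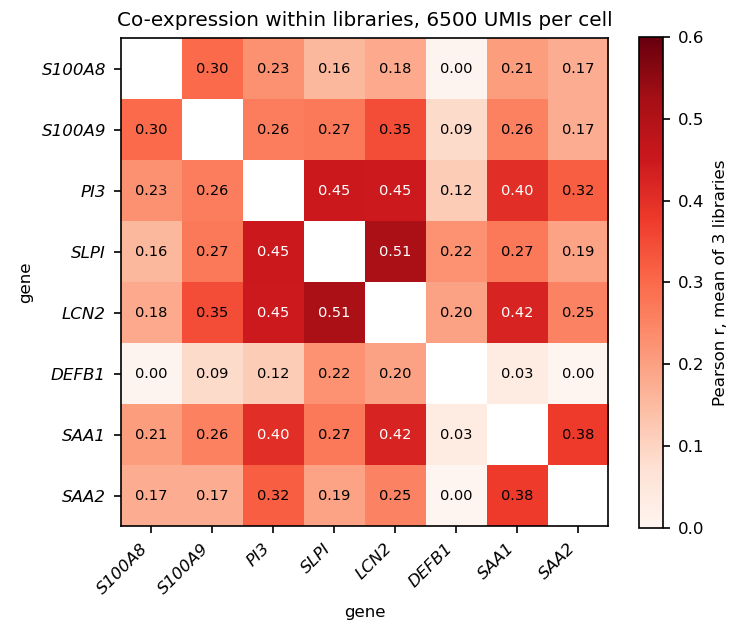
Pearson r between each pair of genes over cells thinned to 6500 UMIs (log of count plus 1), as the mean of the 3 within-library values; darker red is higher and the diagonal is left blank. SLPI and LCN2 had the highest mean, 0.51, and DEFB1 had 0.03 or less with S100A8, SAA1 and SAA2.

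The same pattern appeared as shares of cells. Among cells with S100A8, S100A9 was also found in 90.5% of double-positive (38 of 42), 73.3% of single-positive (11 of 15) and 83.7% of parental cells (41 of 49), against 42.7%, 39.3% and 41.6% of cells without S100A8. In the other direction, 4.48%, 2.15% and 4.01% of cells with S100A9 had S100A8, against 0.37%, 0.51% and 0.58% of cells without S100A9. Since few cells had S100A8 at all, these shares could only be low. S100A8 thus lay mostly within the S100A9 cells, but this was not particular to the calprotectin pair. LCN2 was found in 88.1%, 100% and 81.6% of cells with S100A8, against 58.2%, 56.6% and 58.7% of cells without it. Cells with SAA2 had SAA1 in 72.2%, 60.9% and 74.2%, against 22.3%, 23.8% and 24.7% of cells without SAA2. Cells with DEFB1 had LCN2 in 82.5%, 80.8% and 83.6%, against 57.5%, 55.1% and 57.1% of cells without it. For SAA1 the same comparison gave 28.2%, 25.3% and 30.2% of cells with DEFB1, against 23.4%, 25.8% and 26.3% without. DEFB1 thus went with LCN2, and with SAA1 it gave overlapping intervals in all 3 libraries.

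Cells with S100A8 carried the epithelial markers. With all UMIs counted, their epithelial markers summed to 11987 CPM in double-positive, 11626 CPM in single-positive and 11944 CPM in parental cells, against 10079, 10310 and 10398 CPM in cells without S100A8. Each of them held at least 54, 97 and 31 epithelial UMIs. The neutrophil and monocyte markers summed to 13.1, 9.17 and 16.2 CPM in cells with S100A8, against 5.61, 5.63 and 6.35 CPM in the others, on 40, 20 and 66 UMIs, and PTPRC was at 0.

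Cells differed in how many of the 8 genes they held. None of the 8 was detected in 7.53% of double-positive, 8.52% of single-positive and 6.89% of parental cells at 6500 UMIs. At least 4 of the 8 were detected in 15.9% (14.3 to 17.6) of double-positive, 22.1% (19.8 to 24.4) of single-positive and 19.9% (18.3 to 21.6) of parental cells, and all 8 in 1, 1 and 3 cells. For the overlap of the richest 1% of cells, cells were ranked by the gene's share of their UMIs. The cells richest in SAA1 and in SAA2 coincided for 31 of 55 over the libraries, LCN2 with SAA1 for 26 and PI3 with SAA1 for 25. S100A8 with DEFB1 coincided for 0. Sets of 19, 12 and 24 cells would share few cells or none if unrelated, so that 0 is not read. The richest double-positive cell held 2284 UMIs of the 8 genes, 5.36% of its 42648, with 1151 of SLPI, 424 of PI3, 378 of LCN2 and 260 of SAA1. The richest single-positive cell held 2784 of 77071 and the richest parental cell 1862 of 53919, both led by LCN2, with 1452 and 1146 UMIs. These were not the deepest cells: 349 double-positive, 72 single-positive and 117 parental cells had as many UMIs in all.

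Outside the 8 genes, the feature most like their sum over cells was WFDC2. WFDC2, which encodes another WAP protein and lies 215 kb from SLPI, had the highest mean correlation with the sum of the 8 genes among features outside the 8, 0.62, followed by S100P, a calcium-binding S100 protein, at 0.52. Next were ASS1, argininosuccinate synthase, at 0.47, C15orf48 at 0.46 and CEACAM6, a surface adhesion protein, at 0.43. WFDC2 was most like SLPI (0.56) and LCN2 (0.58) and was among the 5 genes most like SAA1, PI3 and S100A9 as well. It had 0.23 with DEFB1, 0.23 with SAA2 and 0.17 with S100A8. LCN2 and SLPI, with the highest levels, weigh most in the sum. The 5 genes most like S100A8 were all among the 8, led by S100A9. Most like DEFB1, with low values, were S100P, KRT4 (an oesophageal-type keratin), SERPINB3 (a squamous protease inhibitor), CEACAM6 and LY6D, at 0.26 to 0.23. They were not particular to DEFB1: with SLPI the same genes, in this order, had 0.52, 0.36, 0.43, 0.44 and 0.26. SPRR2A, a cornified envelope protein, was among the 5 most like PI3 (0.35) and SAA2 (0.24), and PDZK1IP1 among those most like SAA2 (0.25). WFDC2 itself had 444 CPM in double-positive and 451 CPM in single-positive cells, against 621 CPM in parental cells, with log2 ratios of -0.48 and -0.46 over parental cells.

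Several other gene lists differed with the number of the 8 genes found in a cell, in the same direction in every library. The WAP list, which is nearly all WFDC2, summed to 2144 CPM in double-positive, 1765 CPM in single-positive and 2611 CPM in parental cells with 5 or more of the 8, against 123, 81.1 and 72.3 CPM in cells with none. Squamous differentiation genes summed to 7061, 7400 and 7353 CPM in the cells with 5 or more, against 2574, 2634 and 2919 CPM in those with none, and acute phase genes to 229, 241 and 242 CPM, against 46.4, 42.0 and 27.8 CPM. Classical subtype genes of pancreatic carcinoma summed to 1129, 997 and 1186 CPM, against 287, 270 and 314 CPM, and NF-kB targets and chemokines to 2815, 2411 and 2671 CPM, against 1378, 1148 and 1036 CPM. Genes of G2 and mitosis went the other way, with 1142, 1206 and 1099 CPM in the cells with 5 or more, against 1797, 2095 and 2032 CPM. Epithelial markers were also higher in cells with 5 or more, at 12990, 12667 and 14010 CPM, against 8704, 9035 and 8417 CPM. The transcription factors and other regulators known to induce these genes differed less, with 2175, 2264 and 2021 CPM, against 2099, 1864 and 1865 CPM. The inducing cytokines had no common direction, with 721, 899 and 597 CPM, against 788, 698 and 750 CPM.

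**Figure D5:**
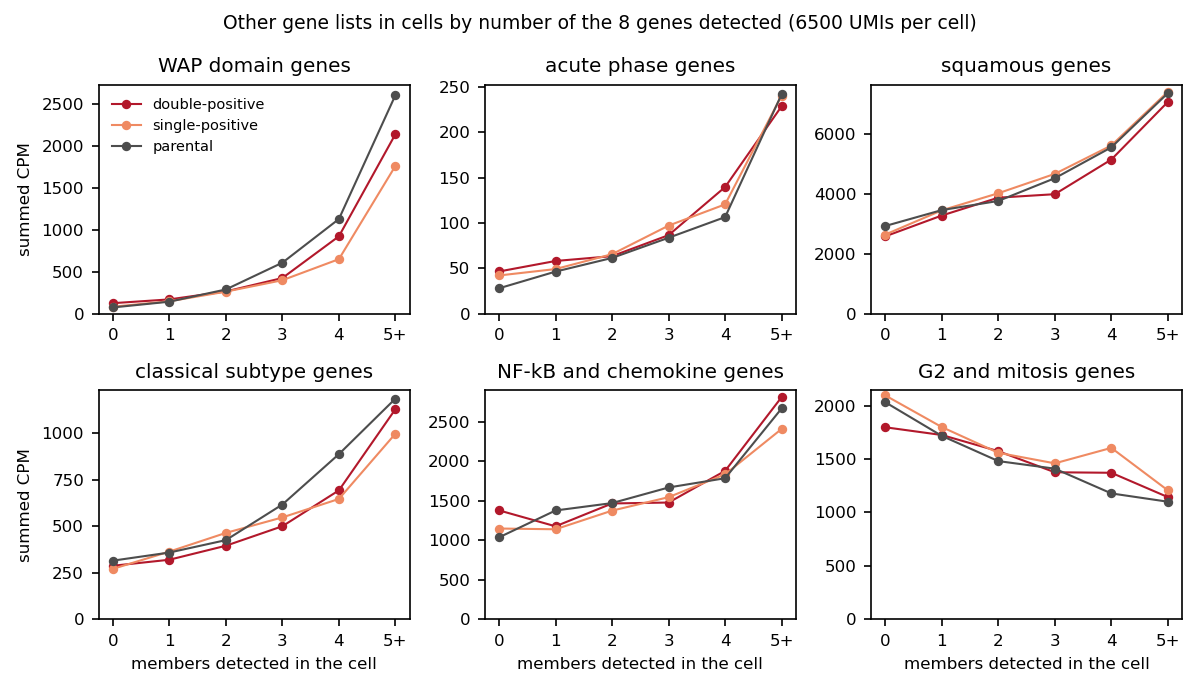
Summed level of 6 other gene lists (vertical axes, CPM, from 0) in cells grouped by how many of the 8 genes were detected at 6500 UMIs (horizontal axes, 5+ is 5 or more), for double-positive, single-positive and parental cells. The WAP, acute phase, squamous, classical subtype and NF-kB lists were higher in cells with 5 or more than in cells with none, and the G2 and mitosis list was lower, in all 3 libraries.

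The lists did not all go with each gene to the same degree. In cells with DEFB1 the classical subtype list was 2.34 times as high as in cells without it in double-positive, 2.39 times in single-positive and 2.11 times in parental cells, and for SAA1 these values were 1.09, 1.14 and 1.07. The NF-kB and chemokine list showed the opposite order, at 0.986, 0.997 and 1.15 times for DEFB1 and 1.48, 1.55 and 1.45 times for SAA1. Neither was particular to these genes: the classical list was 2.24, 2.51 and 1.82 times as high in cells with S100A8, and the NF-kB and chemokine list 1.79, 1.60 and 1.65 times as high in cells with SAA2.

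Some of these levels differed with cell cycle phase and mitochondrial share. At 6500 UMIs per cell, LCN2 was at 697, 941 and 912 CPM in double-positive, single-positive and parental cells called G1, against 433, 375 and 409 CPM in S and 408, 449 and 457 CPM in G2 and mitosis. G1 cells made up 45.8%, 42.0% and 46.6% of the libraries. DEFB1 was higher in G1 in single-positive cells (23.3 CPM, against 10.6 in S and 13.99 in G2 and mitosis) and in parental cells (18.9, 14.7 and 10.9 CPM). In double-positive cells it was not (9.88, 10.9 and 10.0 CPM), and within G1 its log2 ratio of double-positive over single-positive cells was -1.72. LCN2 was at 981, 738 and 813 CPM in cells under 0.5% mitochondrial UMIs, against 519, 602 and 581 CPM in the others. PI3 was at 156, 103 and 81.8 CPM in those cells, against 78.4, 69.2 and 72.1 CPM in the others. S100A9 went the other way, at 228, 154 and 208 CPM in cells under 0.5% mitochondrial UMIs, against 259.5, 181 and 233 CPM in the others. In the single-positive library fewer cells under 0.5% mitochondrial UMIs had PI3 (13.9%, against 21.4% of the others) or LCN2 (49.5%, against 59.2%). In the double-positive and parental libraries more of them had PI3 and LCN2. The part of these cell states in the differences between libraries was not tested beyond the alternatives that leave them out.

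S100A8 had no common direction with depth. At 6500 UMIs per cell, with the cells in 4 groups of about the same size from the shallowest to the deepest, it was at 17.8, 7.61, 15.2 and 4.12 CPM in double-positive, 0.953, 3.81, 5.26 and 3.81 CPM in single-positive and 6.38, 5.62, 8.69 and 13.03 CPM in parental cells. In cells of 22974 to 32998 UMIs, the range shared by the middle of the 3 libraries, S100A8 had 298 UMIs in 701 double-positive cells and 2 UMIs in 142 single-positive cells, against 236 UMIs in 628 parental cells. The log2 ratio there was 4.94 (3.08 to 7.996) for double-positive over single-positive cells. Those UMIs came from only 27 double-positive, 2 single-positive and 24 parental cells, and the interval does not cover the spread between cells. In 11 of 11 alternatives S100A8 was at least 1.5-fold higher in double-positive than in single-positive cells, though below the floor without the richest 1% of cells.

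The inducers, receptors and regulators of these genes differed little between the populations, while some genes of other lists differed more. Of 18 inducing cytokines 6 were above the floor, of 28 receptors and adaptors 9, and of 26 regulators 23, and none of these was 1.5-fold apart in any comparison. IL1A, an alarmin cytokine, had 244, 252 and 245 CPM in double-positive, single-positive and parental cells, and TNFRSF1A, a receptor of tumour necrosis factor, had 106, 110 and 104 CPM. CEBPB, a C/EBP factor of the acute phase, had 73.9 CPM in double-positive and 87.8 CPM in single-positive cells, against 93.6 CPM in parental cells, a log2 ratio of -0.34 for double-positive over parental cells. Of 33 other antimicrobial genes 4 were above the floor, RNASE7, CCL20, CCL28 and ADM, and of 27 other acute phase genes 3, C3, C1R and C1S, with none 1.5-fold apart. Of 18 other S100 genes 10 were above the floor, and of these S100A4 alone was 1.5-fold apart, in double-positive over parental cells (log2 ratio -0.74). Over all 9501 features at the floor, 0.453% were 1.5-fold lower in double-positive than in single-positive cells. For double-positive against parental cells 0.41% were lower, and for single-positive against parental cells 0.253%. The shares 1.5-fold higher were 0.305%, 0.263% and 0.337% in the same order. In the squamous list 3 of 24 genes above the floor were 1.5-fold lower in double-positive than in single-positive cells, KRT4 (-1.14), KLK11 (-0.79) and KRT16 (-0.65, chosen after its value was seen), and 2 of 10 in the classical list, TFF1 (-0.95) and TFF2 (-0.86). KRT4 was also 1 of the 5 genes most like DEFB1. No gene of these 2 lists was 1.5-fold higher in that comparison. In double-positive against parental cells KRT4 (-1.35), SERPINB3 (-0.86) and KRT6B (-0.73) of the squamous list and TFF1 (-0.91) and MUC13 (-0.71) of the classical list were 1.5-fold lower and none was higher. In single-positive against parental cells no squamous gene was that far apart, while TFF2 was higher (0.81) and PLA2G10 (-0.64) and MUC13 (-0.63) were lower. Among genes that share inducers with the 8, 3 of 29 interferon-response genes above the floor were 1.5-fold lower in single-positive than in parental cells, ISG20 (-0.72), CXCL11 (-0.78) and CXCL10 (-0.64), and 2 of 14 NF-kB targets and chemokines, C15orf48 (-0.72) and BIRC3 (-0.61). CXCL10 (-0.79) and BIRC3 (-0.63) were also 1.5-fold lower in double-positive than in parental cells, and LAMP3 was higher in double-positive than in single-positive cells (0.60). No other gene of these last 2 lists was that far apart in any comparison. SERPINB3, KRT6B, MUC13, PLA2G10, CXCL10, CXCL11 and BIRC3 were also chosen after their values were seen. Of 14 receptors and targets of the 8 proteins, BSG and SCARB1 were above the floor and neither was 1.5-fold apart in any comparison.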

How the data were processed

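Per the labels' protocols, the chemistry was version 2 of the Chromium 5' kit from 10x Genomics. The authors deposited UMI counts for each feature and barcode without a filter on cells. Per the file headers Cell Ranger wrote these counts, and the tools in the submitters' processing notes are Cell Ranger (4.0.0) and Seurat (4.0.6), with GRCh38 as the build. Positions come from GENCODE 29 by gene identifier, which may differ from the annotation behind the counts (not given in the sources used here). Barcodes with at least 6500 UMIs were kept as cells. Doublets were not removed, since a pair of cells is what the double-positive gate was meant to hold. The labels do not say whether cells were expanded after sorting, and whether those sequenced were pairs was not tested. An alternative left out the 5% of cells with most UMIs. Counts were summed per library and scaled to CPM. Ratios carry exact conditional binomial intervals (Clopper-Pearson), levels exact Poisson intervals and shares Clopper-Pearson intervals, all at 95% and all for counting error only. Shares, correlations, phases and list sums by cell used cells thinned to 6500 UMIs without replacement.

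The genes and lists were chosen with earlier results of these data known. Of each list up to 3 features were named, by highest mean CPM and largest absolute log2 ratio of double-positive over single-positive cells, and for each gene the 5 features above the floor with the highest mean within-library correlation. Others that are the few past 1.5-fold in a list were named after their values were seen. The steps were tested on simulated data. Phases were scored with scanpy 1.11.5; other steps used Python 3.11.15, numpy 2.4.6, pandas 2.3.3, scipy 1.17.1 and matplotlib 3.10.9. Alternatives changed the cell call, depth, weighting, scaling, free RNA, phase, floor and fold.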

Additional observations from a re-analysis of the deposited data

How the results depend on the processing

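No paired analysis was possible because each population had 1 library, numbered 1, and no test was made. Of 42 recomputed counts of genes at least 1.5-fold apart, 34 stayed within 1.5 times the count as reported. The count for double-positive against single-positive cells was 1, DEFB1, in place of 2 with a floor of 10 CPM, and 1 without the richest 1% of cells, where S100A8 fell below the floor. It was 3 in thinned cells and in G1 cells, where SAA2 was at -0.67 and -0.62. For single-positive against parental cells the count was 0 in place of 1 under those same alternatives, 2 in thinned cells (with SAA2) and in G1 cells (with DEFB1), and 3 in the shared UMI range (with LCN2 and SAA1). For double-positive against parental cells it was 0 in place of 1 at 2-fold. The cause was not tested, except that a higher floor and leaving out cells remove S100A8 by construction. Of 264 recomputed log2 ratios 137 stayed within their counting interval. The ratios past 1.5-fold, all of S100A8 or DEFB1, each kept their sign in 11 of 11 alternatives. Some ratios under 1.5-fold did change sign: that of SAA1 in double-positive over single-positive cells kept it in 7 of 11. For genes under 1.5-fold, LCN2 in double-positive over single-positive cells ran from -0.47 in G1 cells to 0.56 in the shared UMI range. Of 120 recomputed shares of cells 78 moved beyond their interval, 24 of 24 with all UMIs and 24 of 24 where at least 2 UMIs were asked for. Of 84 recomputed mean correlations of pairs 43 left the range of the 3 libraries as reported: 26 of 28 with all UMIs, 10 with another seed for the thinning and 7 without cells under 0.5% mitochondrial UMIs. With all UMIs the mean of SAA1 and SAA2 was 0.59 in place of 0.38. Depth limits S100A8, DEFB1 and SAA2 most, with 219 to 1089 UMIs per library.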

Other observations

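S100A7 (psoriasin), an antimicrobial S100 protein of squamous epithelium, was below the floor and was chosen after its values were seen. It had 10.1 CPM in double-positive cells, against 0.813 CPM in single-positive and 1.44 CPM in parental cells, on 615, 41 and 92 UMIs. These came from 13 double-positive, 6 single-positive and 16 parental cells, and 1 double-positive cell held 391 of the 615. Without the 3 richest cells of each library S100A7 was at 1.49, 0.0595 and 0.486 CPM. The double-positive cell with 391 UMIs of S100A7 was also the cell richest in the 8 genes, with 1151 UMIs of SLPI and 424 of PI3, and held no S100A8 or DEFB1. In the single-positive and parental libraries the cell with most S100A7 held 25 and 44 UMIs of S100A8 and 74 and 168 of S100A9.

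Barcodes of at least 500 but under 6500 UMIs, which were not counted as cells, numbered 189 in the double-positive, 138 in the single-positive and 221 in the parental library. Their level of LCN2 was 221, 191 and 404 CPM and of SLPI 226, 270 and 557 CPM, below the levels in cells of the same library.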
